A study of Mus musculus with 6 samples.

Results

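The transcripts of 8 enzymes of gluconeogenesis, the pathway that builds glucose from lactate, amino acids and other small precursors, were examined in mouse haematopoietic stem cells (HSCs) of control mice and of mice in which Csf1r-Cre deletes *Maea*, a subunit gene of a ubiquitin ligase. The genes were *Fbp1*, *Fbp2*, *Pck1*, *Pck2*, *Pcx*, *Mdh1*, *Mdh2* and *G6pc3*. They were chosen by their place in the pathway and because enzymes of this pathway are substrates of the yeast counterpart of the MAEA ligase, and they were selected with earlier results of the same comparison known, among them the low *Fbp1* values of the mutant libraries. The difference between genotypes is therefore given for these 8 genes as a description without a test. All 8 were found among the 46959 rows of the table, and 6 of them reached 1 CPM (a read count scaled to a common library total) in at least 3 libraries, as did 12955 genes in all.

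The study compared 3 control libraries with 3 MaeaCsf1r-Cre libraries, each made from about 2000 sorted bone marrow HSCs pooled from 2 mice. The mice were littermates aged 8 weeks by the design text, of both sexes, on a C57BL/6 background. MaeaCsf1r-Cre mice carried floxed *Maea* alleles and a Cre recombinase under the *Csf1r* promoter, which is best known for activity in monocytes and macrophages, so that the deletion would not be restricted to HSCs. The labels name the other littermates only as control and do not say whether they carried the floxed alleles. With replicates given in the order 1, 2 and 3 here and below, *Maea* itself measured 108, 116 and 123 CPM among the controls and 76.9, 88.6 and 101 CPM among the mutants. All mutant libraries were below all control libraries, yet most of the *Maea* signal was still present, and a value per gene does not separate reads of deleted and of intact alleles. The scaling of the table corresponded to an estimated 32960000 to 39606000 reads in the controls and 44149000 to 60926000 reads in the mutants, so that no control was as deep as any mutant library. Of the stem cell markers, *Kit* was at 551 to 700.1 CPM in controls and 393 to 562 CPM in mutants, *Slamf1*, which encodes the CD150 used in the sort, at 13.1 to 35.1 and 15.9 to 31.5 CPM, and *Mecom* at 33.9 to 74.4 and 21.9 to 56.9 CPM, so that all 3 were detected in every library and overlapped between the groups.

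Gluconeogenesis bypasses the irreversible steps of glycolysis. Pyruvate carboxylase (Pcx) makes oxaloacetate in mitochondria, malate dehydrogenases (Mdh1 in the cytosol, Mdh2 in mitochondria) move its carbon across the membrane as malate, phosphoenolpyruvate carboxykinases (Pck1 in the cytosol, Pck2 in mitochondria) make phosphoenolpyruvate, fructose-1,6-bisphosphatases (Fbp1 of the liver and kidney type, Fbp2 of the muscle type) remove a phosphate, and glucose-6-phosphatases release free glucose. The complete pathway is a property of liver and kidney; in other tissues several of these enzymes serve the citric acid cycle, the exchange of reducing equivalents or, for G6pc3, the removal of a toxic glucose analogue phosphate in neutrophils. In yeast given glucose, the GID ligase, of which MAEA is a mammalian subunit, marks fructose-1,6-bisphosphatase, phosphoenolpyruvate carboxykinase and cytosolic malate dehydrogenase for degradation. Its receptor Gid4 reads a proline at or near the start of these proteins. That control acts on protein, whereas the values here are of RNA, and none of them measures protein stability.

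The first 30 bases of each coding sequence are shown because the second codon sets the first residue that Gid4 would meet where the initiator methionine is removed. They were read from GENCODE transcripts of the GRCm38 build with a consensus coding sequence, and capitals mark the second codon.
Fbp1: atgGCGaaccatgcgcccttcgaaacggat
Fbp2: atgACGgacagaagcccctttgagacagac
Pck1: atgCCTcctcagctgcataacggtctggac
Pck2: atgCTCcttccttccccgccttccttgtct
Pcx: atgATGctgaagttccaaacagttcgaggg
Mdh1: atgTCTgaaccaatcagagtccttgtgact
Mdh2: atgCTGtccgctctcgcccgtcctgccggc
G6pc3: atgGAGtccacgctgagcgcgggcatcata
Only *Pck1* had a proline codon (CCN) in second place among the 8 members, a codon found there in 1034 of 20315 mouse genes with a coding sequence that starts at ATG (5.09%). *Fbp1* and *Fbp2* had codons for alanine and threonine, and *Mdh1*, the cytosolic malate dehydrogenase, had a codon for serine. The coding starts of *Pck2*, *Pcx* and *Mdh2* encode mitochondrial targeting sequences, which are cut off during import. *Pck1*, the member with the proline codon, was also a member listed at 0 in all 6 libraries.

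*Fbp1*, which encodes the fructose-1,6-bisphosphatase of liver and kidney and lies on chromosome 13 (GRCm38, 62864753 to 62888282, minus strand), was the member that varied most. Its level was 43.6, 53.6 and 7.45 CPM in the controls and 1.94, 4.03 and 6.0 CPM in the mutants. Control replicates 1 and 2 were high and control replicate 3 was close to the mutant libraries, so that the groups did not overlap but were separated by a narrow gap. The mean was 34.9 ± 24.3 CPM (SD, n = 3) in controls and 3.99 ± 2.03 CPM (SD, n = 3) in mutants, and the log2 fold change of mutant over control on log2(CPM + 1) was -2.55 (SE 0.68).

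The size of the *Fbp1* difference rested on control replicates 1 and 2. Within same-numbered pairs, which deviated together across the table, the control was 22.5-fold, 13.3-fold and 1.24-fold above the mutant in pairs 1, 2 and 3. The log2 fold change was -2.05 without control replicate 2 and -3.39 without control replicate 3. The lowest *Fbp1* value, in MaeaCsf1r-Cre replicate 1, corresponded to 118 reads after rounding and the highest, in control replicate 2, to 2124 reads. The counting error of reads was thus small beside the 27.7-fold range. It does not cover the sampling of cells or RNA molecules before amplification, which was not measured. In bulk libraries of this kind, fewer cells that express a gene and less RNA per cell cannot be told apart.

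Over all 12955 genes tested, limma with Benjamini-Hochberg adjustment called 1 gene (0.00772%), with or without the replicate number as a block, and that gene was not a member. Every mutant library was below every control library for 785 genes (6.06%) and above for 323 genes (2.49%). Of the 6 members measured, 1 (*Fbp1*) was of the first kind and 0 were of the second, and nothing is read from these counts because the members were selected with this comparison known. The median log2 fold change over all genes tested was -0.06.

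*Fbp2*, the muscle-type fructose-1,6-bisphosphatase, lies on the same strand of chromosome 13, where 6330 bases separate its start from the 3′ end of *Fbp1*, and was listed at 0 in all 6 libraries. At the estimated depth, a count of 0 allows up to 3 reads, or 0.0492 to 0.0910 CPM. The table also lists the genes of the mitochondrial genome, which every cell uses, at 0 in all libraries, so that an entry of 0 is given here only as listed. *Fbp1*, at 1.94 CPM in its lowest library, was above these limits in all 6.

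Of the carboxykinases, *Pck1*, the cytosolic enzyme of liver and kidney, was listed at 0 in all 6 libraries, as was *Fbp2*. *Pck2*, the mitochondrial enzyme, was at 140, 128 and 116 CPM in controls and 140, 112 and 136 CPM in mutants. The ranges overlapped, with a mean of 128 ± 11.8 CPM (SD, n = 3) in controls and 130 ± 15.3 CPM (SD, n = 3) in mutants. Its log2 fold change was 0.01 (SE 0.13), and the sign changed when single libraries were left out. An antisense gene, *Gm10876*, shares 53 exonic bases with *Pck2*, and the library kit does not keep the strand.

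*Pcx*, pyruvate carboxylase, was at 17.6, 11.3 and 14.8 CPM in controls and 21.6, 12.9 and 17.3 CPM in mutants. The groups overlapped (14.6 ± 3.12 against 17.2 ± 4.38 CPM, SD, n = 3 each), and the log2 fold change was 0.22 (SE 0.24). Within the same-numbered pairs the mutant was 1.23-fold, 1.13-fold and 1.17-fold above the control, so that the pairs differed from one another by more than the genotypes within them.

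*Mdh1*, the cytosolic malate dehydrogenase, was at 205, 250 and 220 CPM in controls and 204, 191 and 219 CPM in mutants. Means of 225 ± 22.7 and 204 ± 14.2 CPM (SD, n = 3 each) gave a log2 fold change of -0.13 (SE 0.12). *Mdh2*, the mitochondrial enzyme, was at 323, 270 and 281 CPM in controls and 406, 288 and 324 CPM in mutants. Its log2 fold change was 0.21 (SE 0.15), with means of 292 ± 27.9 and 340 ± 60.5 CPM (SD, n = 3 each). Both genes overlapped between the groups, and the highest *Mdh2* value was in MaeaCsf1r-Cre replicate 1. In same-numbered pairs *Mdh2* was 1.26-fold, 1.07-fold and 1.15-fold higher in the mutant. *Mdh1* shares 52 exonic bases with *Wdpcp* on the opposite strand, a gene at 5.88 to 7.60 CPM.

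*G6pc3*, the glucose-6-phosphatase catalytic subunit found in most tissues and needed for neutrophil function, was at 71.3, 71.1 and 84.9 CPM in controls and 70.0, 81.3 and 72.9 CPM in mutants. Group means were 75.8 ± 7.91 and 74.7 ± 5.86 CPM (SD, n = 3 each). For this gene the log2 fold change was -0.02 (SE 0.13) as deposited and 0.04 after rescaling by median ratios, so that no direction is given.

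**Figure D1:**
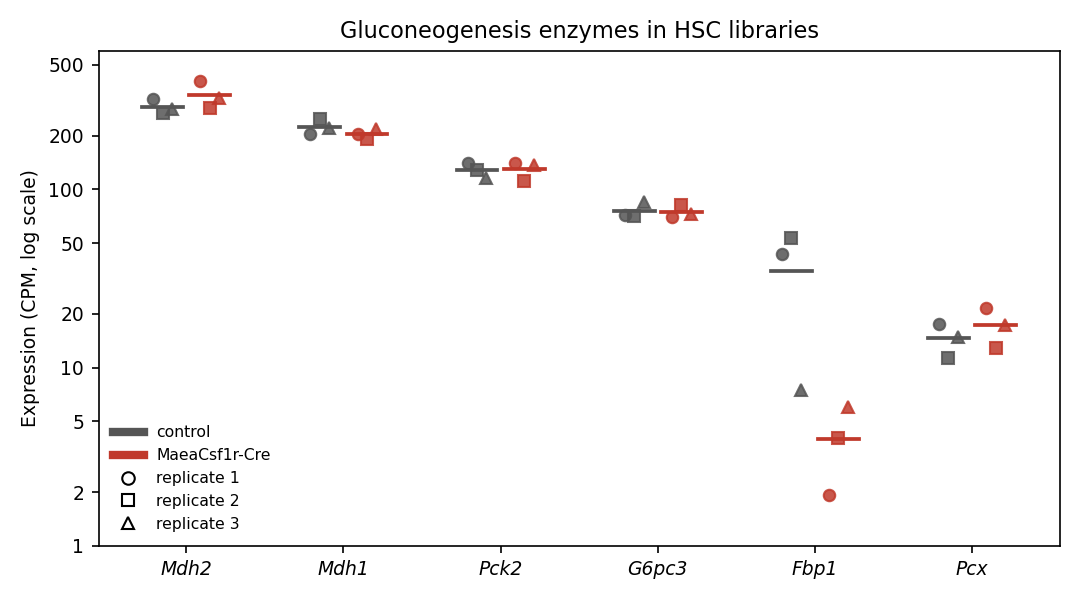
Expression of the 6 detected members in CPM (vertical axis, log scale) by gene (horizontal axis), with control libraries in grey and MaeaCsf1r-Cre libraries in red, a symbol for each replicate and a bar at the group mean. *Fbp1* spans 1.94 to 53.6 CPM and its groups are separated only narrowly, because control replicate 3 (7.45 CPM) lies beside MaeaCsf1r-Cre replicate 3 (6.0 CPM), whereas the groups of the other 5 genes overlap. *Fbp2* and *Pck1*, at 0 in all 6 libraries, are not drawn.

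Over the 6 libraries together, the coefficient of variation was 118% for *Fbp1*, 23.3% for *Pcx*, 15.7% for *Mdh2*, 9.51% for *Pck2*, 9.46% for *Mdh1* and 8.31% for *G6pc3*. *Fbp1* thus varied more than the other 5 detected members. The correlation of *Mdh2* with *Pcx* across the 6 libraries was 0.93 (Pearson's r on log2(CPM + 1)), and that of *Pck2* with *G6pc3* was -0.89. These are descriptions over 6 libraries that share depth and pairing, with no test.

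Levels of the members were compared with one another only per length, as CPM per kilobase of the longest annotated transcript. *Mdh2* had the highest level, 196 ± 30.9 CPM per kb (SD, n = 6), followed by *Mdh1* at 101 ± 9.57, *G6pc3* at 47.9 ± 3.98, *Pck2* at 27.8 ± 2.65, *Fbp1* at 13.1 ± 15.5 and *Pcx* at 3.83 ± 0.89 CPM per kb. The level of *Fbp1* ranged from 1.31 to 36.3 CPM per kb, so that it overlapped with both its neighbours in this order, *Pck2* and *Pcx*. The order of the others was kept in every library on this scale. The ratio of *Mdh2* to *Mdh1* per kb was 2.08, 1.43 and 1.69 in controls and 2.64, 2.0 and 1.96 in mutants, above 1 in 6 of 6 libraries. With all exons of a gene merged, it was above 1 in 4 of 6 libraries, so that the order of these neighbours in single libraries depends on the transcript length assumed, while the order of their means was the same (88.6 and 83.6 CPM per kb). *Pck2* was 5.81 to 10.1 times above *Pcx* per kb in the 6 libraries.

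Promoter windows (250 bases before to 50 after the start of transcription) from RefSeq on GRCm38.p6 were available for all 8 members, with 2 starts for *Pcx*. Those of *Mdh2*, *Fbp1* and *Pck1* are shown because these genes had the highest level, the most variable level and a level listed at 0, and capitals mark CpG dinucleotides.
Mdh2 (chr5:135778399-135778698, plus strand): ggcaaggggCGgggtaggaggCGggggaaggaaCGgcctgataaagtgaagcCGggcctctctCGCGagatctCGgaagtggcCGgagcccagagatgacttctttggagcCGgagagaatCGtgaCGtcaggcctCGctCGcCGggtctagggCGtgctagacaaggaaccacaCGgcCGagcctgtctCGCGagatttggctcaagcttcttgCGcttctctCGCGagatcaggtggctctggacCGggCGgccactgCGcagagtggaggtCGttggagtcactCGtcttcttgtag
Fbp1 (chr13:62888233-62888532, minus strand): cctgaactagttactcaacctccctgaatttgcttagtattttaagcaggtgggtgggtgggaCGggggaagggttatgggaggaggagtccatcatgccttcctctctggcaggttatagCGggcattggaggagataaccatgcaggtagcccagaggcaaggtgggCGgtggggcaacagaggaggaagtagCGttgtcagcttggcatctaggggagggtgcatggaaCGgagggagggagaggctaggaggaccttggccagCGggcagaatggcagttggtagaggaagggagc
Pck1 (chr2:173152823-173153122, plus strand): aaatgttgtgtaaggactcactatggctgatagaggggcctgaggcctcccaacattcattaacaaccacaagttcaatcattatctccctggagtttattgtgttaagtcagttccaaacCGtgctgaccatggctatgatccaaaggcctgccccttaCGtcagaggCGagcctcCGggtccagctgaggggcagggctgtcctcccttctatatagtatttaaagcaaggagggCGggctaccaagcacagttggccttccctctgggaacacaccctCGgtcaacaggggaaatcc
The *Mdh2* promoter held 27 CpG, that of *Mdh1* 21, those of *G6pc3* and of the upstream *Pcx* start 20 each, that of *Pck2* 9, and those of *Fbp1*, *Fbp2* and *Pck1* 6 each. The downstream *Pcx* start had 5. Over 32851 mouse promoters of the same length the median was 7, with quartiles of 3 and 20, so that 26.5% held 20 or more and 47.9% held 6 or fewer. No pattern is read from these numbers over so few genes. The letters TATAAA, searched on both strands, were in none of the member promoters and in 13.6% of all promoters. The core of the cyclic AMP response element, ACGTCA on either strand, was in the *Pck1* promoter 91 bases before the start and in that of *Mdh2*, where its 2 matches belong to 1 palindrome, TGACGTCA, which 1.79% of all promoters held. ACGTCA was in 7.51% of all promoters. These matches are a description of the sequence.

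**Figure D2:**
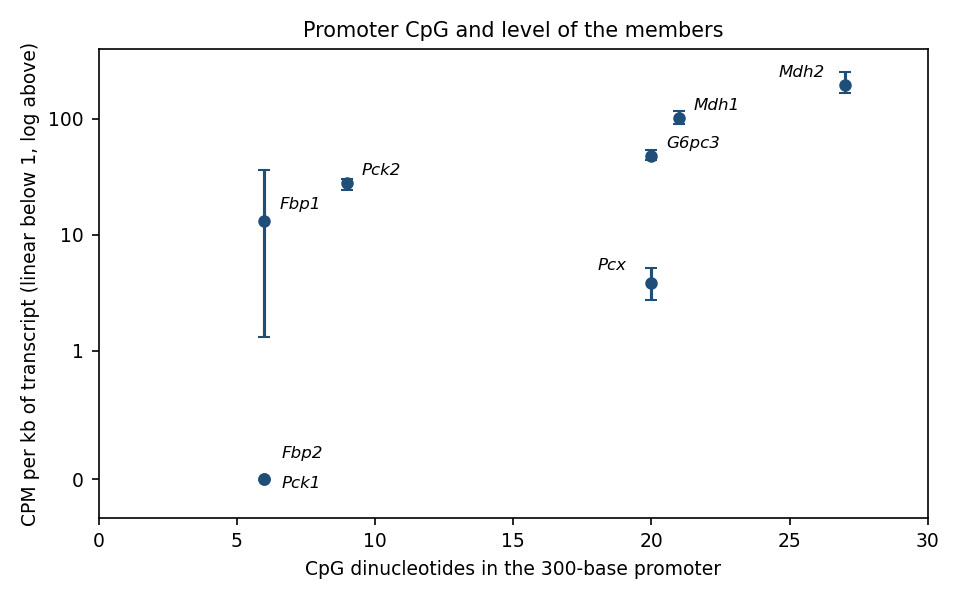
Mean level over the 6 libraries in CPM per kb of the longest transcript (vertical axis, linear below 1 and log above) against the number of CpG in the promoter window (horizontal axis), for the 8 members, with lines from the lowest to the highest library. The upstream start was used for *Pcx*. *Mdh2* (27 CpG) is at the top right, *Pcx* is low with 20 CpG, and *Fbp2* and *Pck1* lie at 0 with 6 CpG, beside *Fbp1* with the same number and a range of 1.31 to 36.3 CPM per kb.

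The enzymes and regulators around the members were followed in 7 lists with 83 genes, of which 73 passed the filter. By limma with Benjamini-Hochberg adjustment 0 of the 73 were called, also with the replicate number as a block. At an unadjusted p under 0.05 there were 7 of the 73, where all 12955 genes tested gave 517. With the block there were 9 of the 73, where all 12955 genes gave 1805. Nothing is read from the rise from 7 to 9, because the count over all genes rose as well. Of the 73, 6 were lower and 1 was higher in every mutant library than in any control library, where the shares over all genes were 6.06% and 2.49%. The 6 include *Maea*, the targeted gene.

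The last step of the pathway was represented by a list of 5 genes. *G6pc* and *G6pc2*, the catalytic subunits of liver and of pancreatic islets, were listed at 0 in all 6 libraries. *Slc37a4*, which carries glucose 6-phosphate into the endoplasmic reticulum, was at 24.4 ± 1.34 CPM in controls and 23.6 ± 2.23 CPM in mutants (SD, n = 3 each). *Slc37a1*, a related transporter, was at 22.5 ± 4.45 and 21.6 ± 3.75 CPM (SD, n = 3 each). The median log2 fold change of the 2 genes tested was -0.05.

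Of 12 genes for the reversible steps that gluconeogenesis shares with glycolysis, 10 were tested, and their median log2 fold change was -0.05. *Tpi1* and *Aldoa*, for triose phosphate isomerase and aldolase, were at 393 ± 32.6 and 347 ± 15.4 CPM in controls against 409 ± 33.6 and 332 ± 2.84 CPM in mutants (SD, n = 3 each). *Gapdh* was at 130 ± 19.8 and 148 ± 8.38 CPM and the enolase gene *Eno1* at 292 ± 34.0 and 332 ± 44.9 CPM (SD, n = 3 each). None of the 10 separated the groups.

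Among 14 enzymes that run the opposing, glycolytic steps, 13 were tested, with a median log2 fold change of -0.20. *Pkm*, pyruvate kinase, varied within both groups, at 248, 543 and 512 CPM in controls and 248, 461 and 392.1 CPM in mutants. *Hk1*, the hexokinase of most tissues, was at 269 ± 24.6 and 306 ± 46.2 CPM (SD, n = 3 each). *Hk3*, another hexokinase, was at 29.6, 26.4 and 15.01 CPM in controls and 5.74, 10.03 and 11.7 CPM in mutants. Its groups did not overlap, its log2 fold change was -1.28 (SE 0.32), and it did not pass the test (limma, adjusted p = 0.967, or 0.218 with the replicate block). Like *Fbp1*, *Hk3* was lowest in MaeaCsf1r-Cre replicate 1 and had control replicate 3 nearest to the mutants. *Pfkfb4*, which encodes an enzyme for making and breaking fructose 2,6-bisphosphate, an inhibitor of Fbp1, was at 7.06 ± 0.96 and 5.31 ± 3.01 CPM (SD, n = 3 each), with overlapping groups.

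The 9 genes of the malate-aspartate shuttle and the carriers that move pyruvate, malate and citrate were all tested, with a median log2 fold change of -0.01 and none separating the groups. *Got2*, the mitochondrial aspartate aminotransferase, was at 175 ± 14.2 and 183 ± 15.4 CPM, and *Got1*, the cytosolic one, at 31.0 ± 1.79 and 35.4 ± 4.98 CPM (SD, n = 3 each). *Slc25a1*, the citrate carrier, was at 131 ± 7.58 and 130 ± 7.72 CPM, and *Slc25a13*, an aspartate-glutamate carrier, at 32.1 ± 4.13 and 25.8 ± 2.31 CPM (SD, n = 3 each).

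Of 19 genes of the citric acid cycle and the malic enzymes, 18 were tested, with a median log2 fold change of 0.02. *Sdha*, a succinate dehydrogenase subunit, was at 436 ± 16.4 and 455 ± 63.1 CPM, and *Cs*, citrate synthase, at 274 ± 50.4 and 297 ± 69.2 CPM (SD, n = 3 each). *Suclg2*, a subunit of succinyl-CoA ligase, was at 128 ± 10.7 and 118 ± 12.0 CPM (SD, n = 3 each). *Me1*, the cytosolic malic enzyme that turns malate into pyruvate, was at 1.18, 3.65 and 4.90 CPM in controls and 1.47, 0.362 and 1.22 CPM in mutants, with overlapping groups. The gene whose mutant values were all above the controls was *Idh3g*, a subunit of isocitrate dehydrogenase, at 202 ± 5.25 and 215 ± 5.65 CPM (SD, n = 3 each).

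Regulators of gluconeogenic genes in liver formed a list of 13, of which 10 were tested, with a median log2 fold change of -0.23. *Cebpa*, a transcription factor of hepatocytes and of myeloid progenitors, was at 6.19, 2.70 and 3.21 CPM in controls and 0.722, 1.79 and 1.51 CPM in mutants. *Sirt1*, a deacetylase, was at 27.6, 30.2 and 29.5 CPM in controls and 22.5, 18.6 and 24.8 CPM in mutants. Both separated the groups and neither passed the test (limma, adjusted p = 0.967 each, or 0.266 and 0.281 with the replicate block). *Nr3c1*, the glucocorticoid receptor, was at 59.5 ± 5.60 and 54.7 ± 9.82 CPM, and *Atf4*, a stress-responsive factor, at 53.6 ± 8.44 and 68.5 ± 13.9 CPM (SD, n = 3 each).

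The subunits of the CTLH complex, the mammalian form of the GID ligase, were all measured (11 of 11), with a median log2 fold change of -0.13. *Maea* (log2 fold change -0.39, SE 0.13), *Rmnd5a* and *Gid4* were lower in every mutant than in any control library, as were 6.06% of all genes tested. *Maea* is the gene targeted by design. *Rmnd5a*, the RING partner of MAEA, was at 54.5, 65.9 and 54.4 CPM in controls and 42.7, 44.0 and 41.5 CPM in mutants. *Gid4*, the substrate receptor, was at 51.1, 51.9 and 51.4 CPM in controls and 49.3, 31.9 and 37.1 CPM in mutants, with MaeaCsf1r-Cre replicate 1 close to the controls. *Mkln1*, which encodes the subunit muskelin, was at 78.4 ± 6.17 and 69.2 ± 13.5 CPM (SD, n = 3 each). None of the 11 passed the test.

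**Figure D3:**
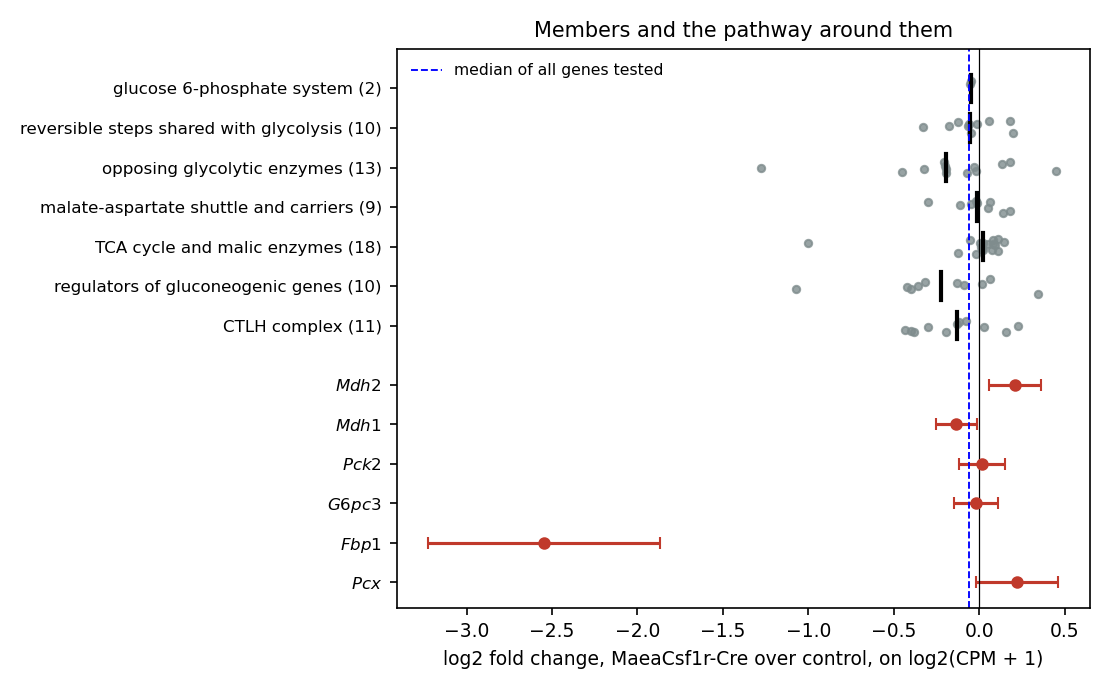
Log2 fold change of MaeaCsf1r-Cre over control on log2(CPM + 1) (horizontal axis) for the 6 detected members (red points, lines of 1 standard error) and for the tested genes of 7 lists (grey points, number in brackets, black bar at the median). The dashed line is the median of all genes tested, -0.06. *Fbp1* (-2.55) lies apart on the left, the other members lie between -0.13 and 0.22, and the lists' medians lie between -0.23 and 0.02.

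The values of *Fbp1* were set beside transcripts of other cell types. The sort took cells positive for Sca-1, c-Kit and CD150 and negative for CD48 and for lineage markers (CD3e, B220, Gr-1, CD11b and Ter119), a gate that would remove most mature T, B, myeloid and erythroid cells. *Csf1r*, the receptor gene whose promoter drives Cre, was at 7.89, 3.39 and 2.31 CPM in controls and 0.369, 2.18 and 0.141 CPM in mutants. All mutant libraries were below all control libraries, as for 6.06% of all genes tested (log2 fold change -1.57, SE 0.49). Control replicate 3 and MaeaCsf1r-Cre replicate 2 were nearly equal. Among the mutants only replicate 2 reached 1 CPM, so that *Csf1r* passed the filter through the controls and its separation supports nothing. Of 13 macrophage markers, 9 passed the filter, and *C1qa*, *C1qb*, *C1qc* and *Cd163* were lower in every mutant than in any control library (6.06% of all genes tested). The 3 genes of complement C1q passed the filter only through the controls, where they were high, so that their count supports nothing. None of the 9 passed the test in the comparison of all 6 libraries (limma, smallest adjusted p = 0.194, or 0.0615 with the replicate block), while *C1qb* and *C1qc* passed with length correction and the replicate block together. *C1qb* was at 8.98, 3.79 and 5.37 CPM in controls and 0.0328, 0 and 0.474 CPM in mutants. The sum of the 13 markers was 54.3 to 151 CPM in controls and 38.8 to 106 CPM in mutants, but *Slc40a1*, an iron exporter, and *Vcam1*, an adhesion molecule, made up much of it. Without *Slc40a1* alone, the sum was 74.8, 26.0 and 66.2 CPM in controls and 8.24, 11.6 and 53.2 CPM in mutants, with overlapping groups. Without both genes, the sum of the other 11 was 46.3, 23.4 and 39.5 CPM in controls and 7.71, 11.6 and 23.2 CPM in mutants. Here the groups did not overlap, but control replicate 2 and MaeaCsf1r-Cre replicate 3 were nearly equal. Both alternatives were chosen after the data were seen. In each of these sums control replicate 2, with the highest *Fbp1*, was the lowest of the controls. *Marco* was at 0 in 5 of 6 libraries.

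Of 10 monocyte and neutrophil markers, 5 passed the filter, and the groups overlapped for each of the 5. Within same-numbered pairs *Mpo*, *Lyz2* and *Ly6c2* were lower in the mutant in all 3 pairs, as were 23.5% of all genes tested. The summed level of the 10 was 415, 409 and 284 CPM in controls and 224, 262 and 244 CPM in mutants. Control replicates 1 and 2 had the high sums and control replicate 3 the lowest of the controls, as for *Fbp1*. *Lyz2* and *Mpo* made up most of this sum, with *Lyz2* at 181, 296 and 256 CPM in controls and 106, 199 and 239 CPM in mutants, and *Mpo* at 181, 96.8 and 26.4 CPM in controls and 90.4, 51.7 and 3.77 CPM in mutants. Neither the sum nor either of these genes alone had the full order of libraries seen for *Fbp1*. *Fbp1* was highest in control replicate 2 and, among the mutants, in replicate 3. The sum was highest in control replicate 1 and, among the mutants, in replicate 2. *Lyz2* was lowest of the controls in replicate 1, and *Mpo* in control replicate 3 was below MaeaCsf1r-Cre replicates 1 and 2. *S100a8* and *S100a9*, markers of mature neutrophils, were at most 1.48 and 0.480 CPM. The part of these cells in the *Fbp1* values was not tested.

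B cell markers overlapped between the groups, with sums of 17.0 to 28.0 CPM in controls and 13.6 to 24.7 CPM in mutants, almost all of it from *Cd79b*, while *Ms4a1* and *Pax5* were at 0 in all 6 libraries. Erythroid markers varied widely in both groups, with sums of 758 to 3738 CPM in controls and 1558 to 4006 CPM in mutants. Most of each sum was *Car1*, at 617 to 3356 CPM in controls and 1402 to 3645 CPM in mutants. Of 8 markers of liver and kidney, the tissues in which Fbp1 and Pck1 are abundant, 3 were at 0 in all libraries, and the sum of the list was at most 0.467 CPM in controls and 0.474 CPM in mutants. The liver and kidney list was thus near 0 in libraries with up to 53.6 CPM of *Fbp1*. That list did not hold *Hnf4a*, of the regulators of gluconeogenic genes in liver. *Hnf4a* was at 10.1, 26.8 and 13.4 CPM in controls and 12.3, 22.0 and 15.7 CPM in mutants, with overlapping groups.

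**Figure D4:**
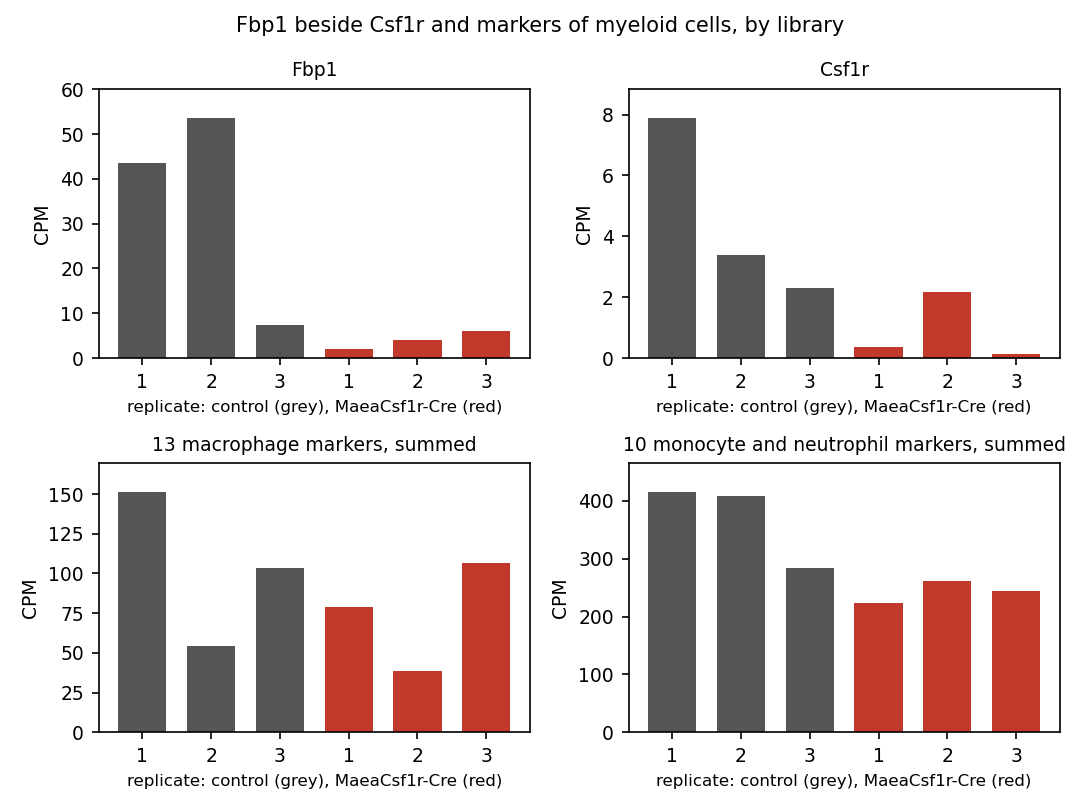
Level in CPM (vertical axes, from 0) of *Fbp1*, *Csf1r*, the sum of 13 macrophage markers and the sum of 10 monocyte and neutrophil markers in each library (horizontal axes, replicates 1 to 3, control in grey and MaeaCsf1r-Cre in red). *Fbp1* and the monocyte and neutrophil sum are high in control replicates 1 and 2, *Csf1r* is highest in control replicate 1 (7.89 CPM), and the sum of all 13 macrophage markers, much of it *Slc40a1*, overlaps between the groups.

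For each detected member, the 3 genes with the most similar profile over the 6 libraries were taken from the 12955 genes tested, by Pearson's r on log2(CPM + 1). *Stk35*, *Trim30c* and *Rbm12b1* were nearest to *Fbp1* (r = 0.98 each). *Stk35* was at 29.9, 30.8 and 24.8 CPM in controls and 23.2, 24.4 and 23.7 CPM in mutants, a much smaller range than that of *Fbp1*. *Exosc8*, *Gm10146* and *Cox7c* were nearest to *Pcx* (r = 0.999, 0.997 and 0.997), with *Exosc8* at 93.3, 62.7 and 78.4 CPM in controls and 116, 68.8 and 91.2 CPM in mutants. *2600006K01Rik* and *Gstp1* were among the 3 nearest to *Mdh2*. *Rad51d*, *Akr1e1* and *Ttc17* were nearest to *Mdh1*, *1110008L16Rik*, *Mrps31* and *Arpc1a* to *Pck2*, and *A130014A01Rik*, *Pkdcc* and *Fkbp11* to *G6pc3*, and all these genes had r of 0.99 or more after rounding. With 6 libraries and 12955 genes, values this high are a ranking only, and no test was made.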

How the data were processed

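RNA from sorted HSCs was amplified with the SMART-Seq v4 kit, made into Nextera XT libraries without strand and sequenced on an Illumina NextSeq. The authors trimmed the reads with Trim Galore, aligned them with STAR 2.5.3a to mm10. Partek Flow gave the normalised table that the authors deposited, CPM per gene with 0.0001 added, which was subtracted here. Of the low values (under 1 CPM), 74.4% to 76.4% were whole multiples of 1 read within 0.05, too few to recover counts, so depth is an estimate. Listed genes held 75.2% to 80.2% of the reads. The limit for a value of 0 is 3 reads, and it covers counting error only.

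Genes with at least 1 CPM in at least 3 libraries were tested with limma 3.58.1 (R 4.3.3, trend, two-sided, Benjamini-Hochberg, threshold 0.05) on log2(CPM + 1), with 3 libraries per group, which understates changes of low genes. The script was tested on simulated data. P-values measure the spread between these libraries. Same-numbered libraries deviated together (r = 0.627, 0.523 and 0.397, and -0.459 to -0.0538 between different numbers), so the numbers were taken as pairs and a replicate block was tried. Other alternatives were a pseudocount of 0.1, filters, scalings, length correction (loess, span 0.5) and leaving out each library.

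Gene models came from GENCODE M21 (GRCm38), later than the annotation the authors used, and covered 44119 of 46959 rows. Promoters came from RefSeq. Protein sequences were not used here. Members and lists were chosen with earlier results of these data known. Named genes were the members, *Maea*, *Csf1r*, the 2 genes with the highest mean and up to 2 with the smallest p of each list, and the 3 genes most like each member, of which 1 is not reported here. Markers, *Idh3g*, *Gid4*, *Hnf4a*, *G6pc* and *G6pc2* were named after their values were seen.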

Additional observations from a re-analysis of the deposited data

How the results depend on the processing

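All settings used the same 6 libraries unless one is said to be left out. The number of genes called by limma was 1 with all 6 libraries and 1 with the replicate block. It was 0 when 10 CPM was required (302 genes at an unadjusted p under 0.05) and 12, among them *C1qb* and *C1qc*, with length correction and replicate block together. When each library was left out in turn it ranged from 0 (without control replicate 2 or control replicate 3) to 3 (without MaeaCsf1r-Cre replicate 3). The causes were not tested, except that fewer libraries or genes entered some of these fits. The number of genes called in the 7 lists was 0 in every setting run. Of the members' log2 fold changes under the other settings, 98 stayed within 1 SD of the value as reported and 9, all of them within single pairs, did not. The 98 include settings that cannot change the fold change of a gene. These are the replicate block, the fit without the mean-variance trend and the changed filters, where the agreement was fixed in advance. *Pck2* (-0.19 to 0.23) and *G6pc3* (-0.22 to 0.19) changed sign, and the other 4 detected members kept theirs in every setting. *Fbp1* ranged from -3.39 to -2.05 when single libraries were left out, was -2.81 with a pseudocount of 0.1, and was -3.92, -3.44 and -0.27 within pairs 1, 2 and 3, and it did not pass the filter at 10 CPM. The within-pair values and the length of the transcript with a consensus coding sequence were chosen after seeing the data. The rank order of the members per kb was the same with each of the 3 lengths, while merged exons lowered the levels of *Mdh2* to 88.6, *Mdh1* to 83.6, *G6pc3* to 33.8 and *Pck2* to 16.5 CPM per kb, and the consensus coding transcript raised *Pck2* to 37.9 CPM per kb. With 3 libraries per group, small differences of the other members could not be resolved.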
